A study of Homo sapiens with 10 samples.

Results

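Lysophospholipid acyltransferases are membrane enzymes that attach a fatty acid to a phospholipid that has lost a chain. The 9 genes described here, LPCAT1, LPCAT2, LPCAT3, LPCAT4, MBOAT1, MBOAT2, MBOAT7, LPGAT1 and LCLAT1, were chosen by name as members of this enzyme class from the 62656 genes of the expression table. They were followed in PC3 cells, a human line grown from a bone metastasis of prostate cancer. The cells received GW3965 at 1 µM, which is a synthetic agonist of the liver X receptors (LXRs), or the vehicle DMSO, in each case for 24 h. Cells of both conditions had been starved overnight and received the treatment in RPMI-1640 medium with glutamine. There were 5 libraries of total RNA per condition and 10 in all, every one from this single cell line. The study used these libraries to ask which genes respond to LXR activation.

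LXRs are nuclear receptors that bind oxysterols and switch on genes of cholesterol export and of fatty acid synthesis. Phospholipids are remodelled in a cycle in which phospholipases A2 remove the fatty acid at the middle carbon of glycerol and acyltransferases put another one back, taken from its coenzyme A ester. LPCAT3, which places polyunsaturated chains on lysophosphatidylcholine, is a known LXR target gene in liver and macrophages. By their folds, 4 of the 9 enzymes, namely LPCAT3, MBOAT1, MBOAT2 and MBOAT7, belong to the membrane-bound O-acyltransferases (MBOAT), and the other 5 belong to the family of the acylglycerolphosphate acyltransferases (AGPAT).

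The promoters of LPCAT3 and MBOAT2 are shown because these genes had the largest log2 fold changes between conditions among the 8 of the 9 genes that could be tested. Both sequences were taken from RefSeq, build GRCh38.p14, and run from 250 bases before to 50 bases after the annotated start, on the minus strand, at chr12:7018427-7018726 for LPCAT3 and chr2:9003635-9003934 for MBOAT2. Capitals mark the letters CCAAT and GGGCGG on either strand, so that ATTGG and CCGCCC are the same motifs read on the other strand.
LPCAT3: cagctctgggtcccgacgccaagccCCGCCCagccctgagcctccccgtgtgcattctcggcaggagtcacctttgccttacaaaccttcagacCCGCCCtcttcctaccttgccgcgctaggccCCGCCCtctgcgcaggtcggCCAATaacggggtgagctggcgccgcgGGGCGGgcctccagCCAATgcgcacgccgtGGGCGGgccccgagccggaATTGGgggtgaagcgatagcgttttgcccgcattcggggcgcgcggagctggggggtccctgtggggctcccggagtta
MBOAT2: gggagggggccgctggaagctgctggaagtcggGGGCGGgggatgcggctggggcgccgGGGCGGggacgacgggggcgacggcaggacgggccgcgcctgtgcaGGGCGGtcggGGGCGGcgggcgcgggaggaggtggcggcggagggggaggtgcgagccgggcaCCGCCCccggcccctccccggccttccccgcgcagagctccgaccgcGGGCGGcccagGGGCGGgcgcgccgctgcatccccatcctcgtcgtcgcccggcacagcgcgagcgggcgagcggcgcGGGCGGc
The LPCAT3 promoter had a GC content of 70.0% and 30 CpG, and that of MBOAT2 had 83.7% and 49 CpG, while the medians over 35116 promoters were 58.7% and 14. CCAAT occurred 3 times in the LPCAT3 window, with as many copies in 3.26% of all promoters, and 0 times in that of MBOAT2. GGGCGG, the letters of a GC box, occurred 5 times in the LPCAT3 window and 8 times in the MBOAT2 window, and 5.14% and 0.812% of all promoters held as many. At least 1 copy was found in 34.6% of all promoters for CCAAT and in 45.0% for GGGCGG. These shares were not matched for GC content, which was above the median in both windows. The half-site AGGTCA, from which LXR elements are built, had 0 matches on both strands of either window and is present in 13.8% of all promoters of this length. The direct repeat, in which a pair of AGGTCA stand 4 bases apart on the same strand, therefore had 0 matches too and is present in 0.0199% of all promoters. Only these exact letters within these windows were searched, so 0 matches does not show that an LXR element is absent. For 7 of the 9 genes a promoter was listed, with none for LPCAT2 and MBOAT1, and the other listed promoters had 0 matches to AGGTCA as well.

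Levels are given as RPKM, the reads of a gene per kilobase of its length after scaling by library. Differences were tested with limma on log2(RPKM + 0.1), two-sided, for the 20402 genes whose mean reached 0.5 RPKM, with Benjamini-Hochberg adjustment over all of them and a threshold of 0.05. Of the 9 genes 8 passed this filter, and LPCAT2 did not. The libraries held from 30612571 to 39387796 reads with DMSO and from 30432027 to 41639297 with GW3965. On the first principal component of the recovered reads, GW3965 libraries 1 and 2 and DMSO library 1 lay together at the high end, from 17.7 to 19.7, and DMSO library 4 lay lowest, at -21.9. The epithelial keratins KRT8 and KRT18 were at 29.8 to 58.5 RPKM in all libraries, whereas CDH1, the gene of E-cadherin, reached at most 0.518 and EPCAM at most 2.16. Among luminal prostate markers, TMPRSS2 lay between 0.963 and 1.38 RPKM, and KLK3 was at 0 in every library. Summed over 6 markers of other cell types, RPKM lay between 1.77 and 2.01 with DMSO and between 1.29 and 2.03 with GW3965, mostly from COL1A1 and PECAM1, and the leukocyte marker PTPRC stayed at or below 0.0244. In cultured cells measured in bulk, a lower level in each cell and fewer cells that express a gene cannot be told apart.

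None of the 8 tested acyltransferase genes passed the threshold (0 of 8 in either direction). Of all tested genes 0.157% did (32 of 20402), with 0.147% (30) higher and 0.0098% (2) lower. At so small a share, 0 of 8 does not set these genes apart from the rest. With quantile normalization, 31 genes were higher and 6 lower. LPCAT3 and MBOAT2 had the largest log2 fold changes of the 8 tested genes. Their libraries did not overlap between conditions, and GW3965 was higher in both, a pattern found in 1.35% of all tested genes in this direction. Both also had an unadjusted limma p under 0.05, as 6.99% of all tested genes had (4.64% higher and 2.36% lower with GW3965). Over the 8 genes the median log2 fold change was 0.07, against 0.003 over all tested genes, and 5 of the 8 were above 0, against 51.1% of all tested genes.

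LPCAT3 lies on the minus strand of chromosome 12 (GRCh38, chr12:6976186-7018510). In DMSO libraries 1 to 5 it was at 2.86, 1.84, 2.13, 2.66 and 2.1 RPKM. With GW3965 it was at 3.09, 3.06, 3.04, 3.73 and 3.44 RPKM. The lowest treated library thus stood 0.182 RPKM above the highest control, which was DMSO library 1. The mean was 2.32 ± 0.422 RPKM (SD, n = 5) with DMSO and 3.27 ± 0.305 RPKM (SD, n = 5) with GW3965, a ratio of 1.41. On the log2 scale the difference was 0.49 (SE 0.12, 95% interval 0.23 to 0.75), with an unadjusted p of 0.00154 and an adjusted p of 0.213 by limma. A two-sided exact permutation test of the means gave p = 0.00794, the smallest value that 5 against 5 libraries allow, and this p is not adjusted for the genes tested. By absolute size of the limma statistic, LPCAT3 ranked 147th among the 20402 tested genes. These values rest on 303 to 475 reads per DMSO library and 493 to 620 reads per GW3965 library, and the DMSO libraries varied by 18.2% (CV), against 5.09% from counting alone.

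Among the controls, DMSO library 1 was also the highest for ABCA1 and ABCG1, which are LXR target genes, but not for the targets SREBF1 and MYLIP, which were highest in DMSO library 4 (14.1 against 12.9 RPKM in library 1 for SREBF1, and 2.64 against 2.18 for MYLIP). ABCA1, the cholesterol exporter, was at 5.75 RPKM there and at 2.50 to 3.20 in the other DMSO libraries. ABCG1, a sterol transporter, was at 2.16 RPKM there and at 1.21 to 1.75 in the others. The part of this library in the LPCAT3 result was measured by leaving it out, and the log2 fold change of LPCAT3 was then 0.57 with an adjusted p of 0.125 by limma. Over the loss of each library in turn, the fold change lay between 0.42 and 0.57.

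Most of the exonic sequence of LPCAT3 is shared with a neighbour on the opposite strand, EMG1, a gene of ribosome biogenesis. In GENCODE 29, 3100 of the 4725 exonic bases of LPCAT3 (65.61%) also lie in exons of EMG1. Of 5043 windows of 50 bases along its transcripts, 2816 (55.84%) occur in transcripts of EMG1. The library kit retains strand, but the strand setting of the authors' counting is not given in the sources used here, so reads of both genes may not have been told apart fully. EMG1 was at 0.563 ± 0.0744 RPKM with DMSO and 0.774 ± 0.131 RPKM with GW3965 (SD, n = 5 each), and its log2 difference of 0.40 (SE 0.16) had a limma adjusted p of 0.631. The conditions overlapped for EMG1. There were 2.55 to 5.32 reads of LPCAT3 for each read of EMG1 with DMSO, and 3.25 to 4.16 with GW3965, with means of 3.57 and 3.6. The ratio therefore overlapped between conditions, and the values of both genes were higher with GW3965 on average. The LPCAT3 value is therefore uncertain.

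MBOAT2, which prefers oleoyl chains for lysophosphatidylcholine and lysophosphatidylethanolamine, lies on the minus strand of chromosome 2 (chr2:8852690-9003813). It was at 5.66, 6.22, 5.37, 4.47 and 4.90 RPKM in DMSO libraries 1 to 5. With GW3965 it was at 6.54, 6.66, 6.95, 6.68 and 8.29 RPKM. All treated libraries lay above all controls, with a gap of 0.322 RPKM between the highest control and the lowest treated library. The mean was 5.32 ± 0.677 RPKM with DMSO and 7.02 ± 0.722 RPKM with GW3965 (SD, n = 5 each), a ratio of 1.32. The log2 difference was 0.40 (SE 0.10, 95% interval 0.18 to 0.61), with an unadjusted p of 0.00177 and an adjusted p of 0.224 by limma, and the exact permutation test gave p = 0.00794. It ranked 160th and rested on 1380 to 2334 reads per library, several times those of LPCAT3. Without GW3965 library 5, the highest of all, the log2 fold change was 0.34 with a limma adjusted p of 0.427. In GENCODE 29, no annotated gene shared exonic bases with MBOAT2, and 0.42% of its 50-base windows occurred in transcripts of other genes.

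**Figure D1:**
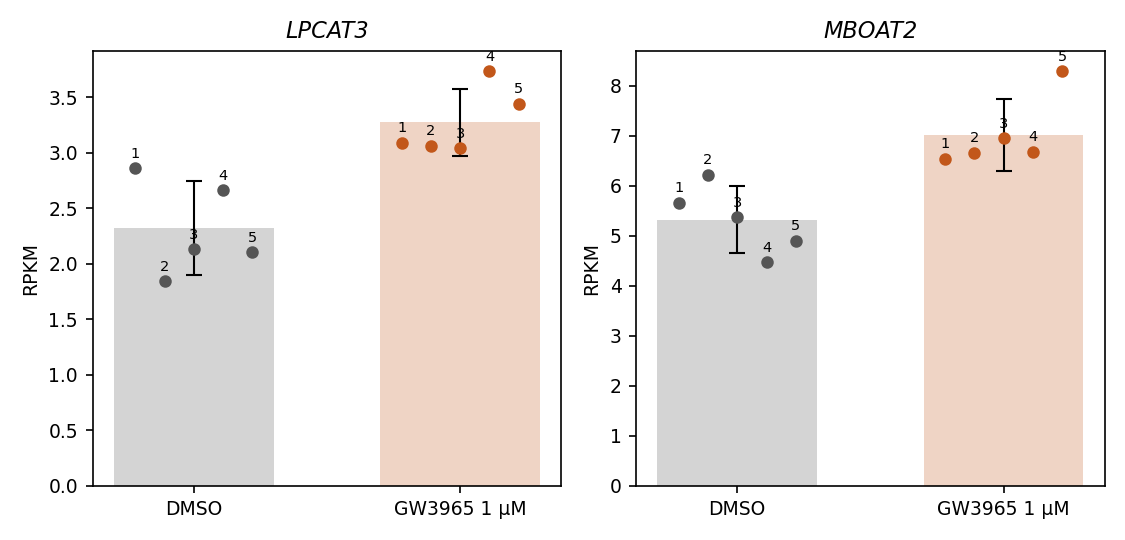
RPKM of LPCAT3 (left) and MBOAT2 (right) in PC3 cells with DMSO or 1 µM of GW3965. Points are libraries with their replicate numbers, bars are means and error bars are the SD of 5 libraries, and in both panels all points of GW3965 lie above all points of DMSO, from 3.04 against at most 2.86 for LPCAT3 and from 6.54 against at most 6.22 for MBOAT2.

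The remaining MBOAT enzymes had interval estimates around 0. MBOAT1, which acts on lysophosphatidylethanolamine and lysophosphatidylserine (chr6:20102145-20212399, minus strand), was at 1.35, 1.62, 1.56, 1.37 and 1.47 RPKM with DMSO. It was at 1.33, 1.27, 1.42, 1.36 and 1.53 RPKM with GW3965. The conditions overlapped, and the log2 difference was -0.09 (SE 0.08, 95% interval -0.27 to 0.10, limma adjusted p = 0.916). MBOAT7, which places arachidonic acid on lysophosphatidylinositol (chr19:54173412-54189882, minus strand), was at 37.2, 36.0, 38.2, 45.8 and 42.6 RPKM with DMSO. It was at 35.4, 35.9, 43.6, 42.0 and 35.9 RPKM with GW3965. Here DMSO library 4 was highest and GW3965 library 1 lowest, in overlapping groups. The log2 difference was -0.05 (SE 0.09, 95% interval -0.24 to 0.14, limma adjusted p = 0.96), and its sign turned without DMSO library 4 (0.00021) and with library weights (0.024).

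Among the enzymes of the AGPAT family, LPCAT1, the enzyme of dipalmitoyl phosphatidylcholine in lung surfactant (chr5:1456480-1523977, minus strand), was at 15.0, 14.4, 15.8, 20.2 and 16.5 RPKM with DMSO. With GW3965 it was at 14.7, 14.3, 17.5, 17.6 and 15.0 RPKM. The conditions overlapped, with a log2 difference of -0.05 (SE 0.10, 95% interval -0.26 to 0.17, limma adjusted p = 0.968), which turned to 0.032 without DMSO library 4 and to 0.045 with library weights. LPCAT4, a lysophosphatidylethanolamine and lysophosphatidylcholine acyltransferase (chr15:34358618-34367278, minus strand), was at 6.69, 8.53, 8.40, 7.10 and 7.07 RPKM with DMSO. It was at 7.68, 7.94, 7.72, 7.78 and 10.2 RPKM with GW3965, so that 1 treated library stood above the other 4. Its log2 difference was 0.13 (SE 0.10, 95% interval -0.09 to 0.34, limma adjusted p = 0.875), and 0.048 without GW3965 library 5.

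LPGAT1, a lysophosphatidylglycerol acyltransferase (chr1:211743457-211830772, minus strand), was at 5.96, 6.16, 5.19, 5.18 and 5.52 RPKM with DMSO. With GW3965 it was at 6.33, 5.99, 6.01, 5.83 and 6.53 RPKM. Means were 5.60 ± 0.446 and 6.14 ± 0.287 RPKM (SD, n = 5 each) in overlapping groups. The log2 difference of 0.13 (SE 0.07, 95% interval -0.01 to 0.28) had a limma adjusted p of 0.755. LCLAT1, which remodels cardiolipin and phosphatidylinositol (chr2:30447226-30644225, plus strand), was at 10.0, 9.20, 8.39, 10.7 and 10.1 RPKM with DMSO. It was at 9.10, 9.31, 9.73, 10.8 and 10.1 RPKM with GW3965, a log2 difference of 0.02 (SE 0.07, 95% interval -0.14 to 0.19, limma adjusted p = 0.982). Its groups overlapped, and its sign turned without DMSO library 3 (-0.027) or GW3965 library 4 (-0.011).

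LPCAT2, the enzyme of platelet-activating factor in inflammatory cells (chr16:55508998-55586670, plus strand), was near the detection limit. Its reads numbered 3, 2, 1, 4 and 1 in the DMSO libraries and 1, 1, 0, 1 and 0 in the GW3965 libraries, or 11 against 3 in total. The ratio of these totals was 0.27, with a 95% counting interval of 0.0483 to 1.02 that includes equality. Its RPKM did not overlap between conditions (0.00419 to 0.0143 and 0 to 0.00400, exact permutation test, p = 0.00794), but the read numbers did, since 1 read occurred in both. Of 4081 genes with 10 to 20 reads in all, 0.343% had lower values with GW3965 without overlap. No call was made for this gene at this depth.

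**Figure D2:**
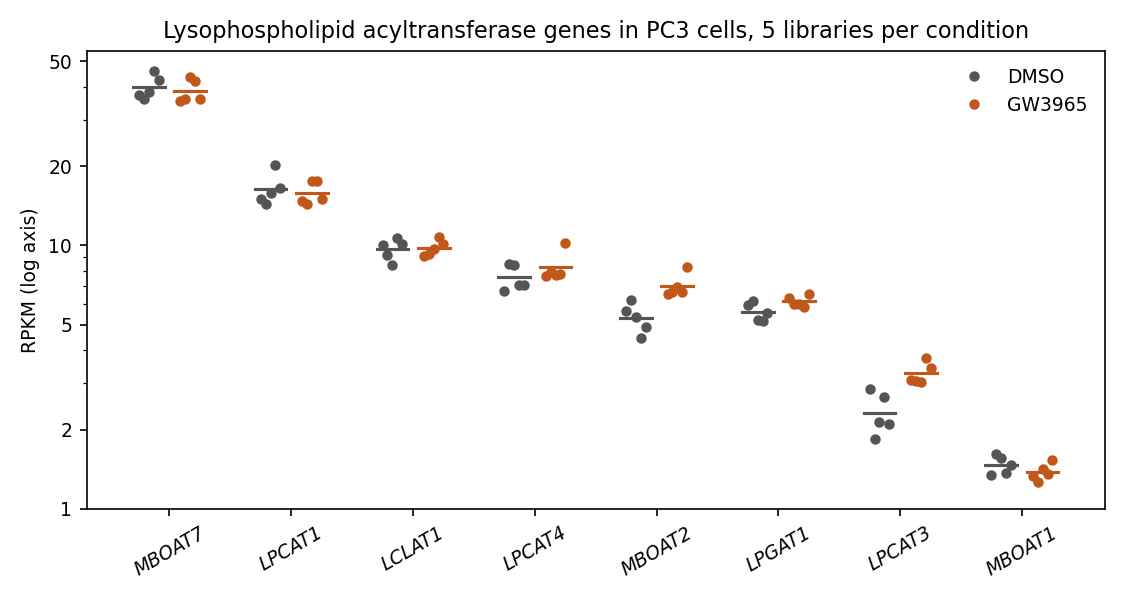
RPKM of the 8 tested acyltransferase genes in each library, on a log axis, ordered by mean level, with a line at the mean of each condition. The order from MBOAT7 at 40.0 RPKM to MBOAT1 at 1.47 with DMSO is wider than any difference between conditions, and LPCAT3 and MBOAT2 are the genes whose groups separate.

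The spread of levels among the enzymes exceeded their differences between conditions. MBOAT7 was the highest in every library, followed by LPCAT1, LCLAT1, LPCAT4, MBOAT2, LPGAT1, LPCAT3, MBOAT1 and LPCAT2 by mean RPKM over the 10 libraries. MBOAT7 contributed 45.2% of the summed RPKM of the 9 genes with DMSO and 42.7% with GW3965 (means of 5 libraries). LPCAT3 contributed 2.63% and 3.63%, with ranges of 2.2 to 3.37% and 3.16 to 3.90% that overlapped, unlike its RPKM. Among LPCAT1 to LPCAT4 alone its share was 7.44 to 11.6% with DMSO and 10.7 to 12.8% with GW3965. The sum over the 9 genes lay between 84.0 and 97.4 RPKM with DMSO and between 84.2 and 96.0 RPKM with GW3965.

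The ranges of some neighbours in this order overlapped. LCLAT1 and LPCAT4 overlapped in both conditions, with LCLAT1 higher in 8 of 10 libraries. MBOAT2 overlapped with LPGAT1 in the DMSO libraries, where it was the higher of the pair in 2 of 5, and stood above it in 5 of 5 GW3965 libraries. The ranges of LPCAT4 and MBOAT2 overlapped with GW3965 and not with DMSO, but LPCAT4 was the higher of the pair in 10 of 10 libraries. The pair of the highest genes, MBOAT7 and LPCAT1, moved together over the libraries. MBOAT7 had 2.27 to 2.58 RPKM for each RPKM of LPCAT1 in all 10 libraries, and both were highest in DMSO library 4, the library at the low end of the first principal component. The part of that component in these levels was not tested for these genes alone. The CV between libraries of a condition was 4.69 to 18.2% over the 8 tested genes, against 1.15 to 6.84% from counting.

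**Figure D3:**
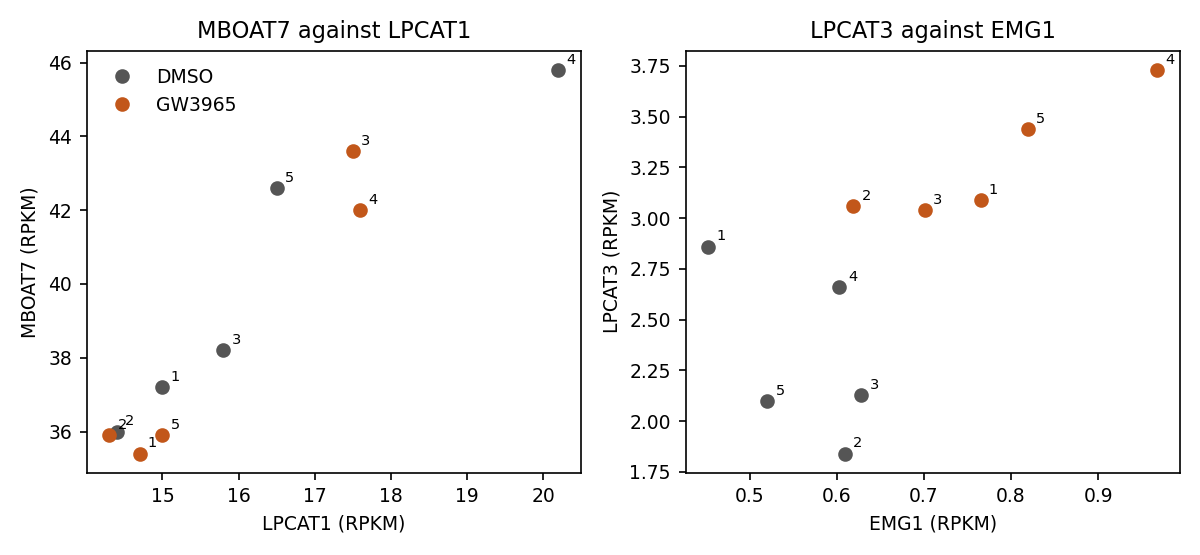
RPKM of MBOAT7 against LPCAT1 (left) and of LPCAT3 against EMG1 (right), each point being 1 library with its replicate number, on linear axes that do not start at 0. MBOAT7 and LPCAT1 are highest together in DMSO library 4 (45.8 and 20.2 RPKM), and on the right GW3965 libraries lie higher on both axes on average, with overlap for EMG1.

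Genes related to these enzymes by family, or by a step of phospholipid synthesis, breakdown or acyl-CoA supply, were then counted in 4 lists. Not all of them act on phospholipids. Of the other MBOAT enzymes 4 of 7 genes could be tested, and 0 passed the threshold, with a median log2 fold change of 0.05. They ranged from DGAT1, which makes triglycerides, at -0.01 (SE 0.05) to PORCN, which acylates Wnt proteins, at 0.14 (SE 0.08). A further list held the glycerol-phosphate and acylglycerolphosphate acyltransferases, which make phosphatidic acid anew, together with TAFAZZIN and TMEM68. Of its genes 10 of 11 were tested and 0 passed, with a median of 0.02. Their extremes were GPAT4 at -0.06 (SE 0.06) and AGPAT4 at 0.22 (SE 0.11). Of the phospholipases, which release lysophospholipids, and the lysophospholipases, which break them down, 19 of 37 were tested and 0 passed, with a median of 0.02. PLA2G6, a calcium-independent phospholipase A2, was lowest at -0.31 (SE 0.18) and PLA1A, a phosphatidylserine-specific phospholipase, highest at 0.34 (SE 0.21). In these 3 lists 0 genes had an unadjusted limma p under 0.05.

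Of the enzymes that supply acyl-CoA, 3 of 8 tested genes (of 11 listed) passed the threshold, all higher with GW3965, against 0.147% of all tested genes. The lists were chosen with earlier results of these data known, so this count may follow in part from the choice. The list had a median log2 fold change of 0.35, and 7 of 8 had an unadjusted limma p under 0.05. Of all tested genes 6.99% had such a p, with 4.64% higher with GW3965. SCD, the desaturase that makes oleoyl-CoA, was at 232, 181, 196, 230 and 181 RPKM with DMSO and at 383, 370, 345, 362 and 366 with GW3965. It rose by 0.85 on the log2 scale (SE 0.08, limma adjusted p = 0.00151). ACSL3, which activates long-chain fatty acids, was at 12.5, 11.5, 10.4, 9.07 and 11 RPKM with DMSO and at 19.0, 18.8, 18.6, 18.2 and 20.1 with GW3965. It rose by 0.80 (SE 0.08, limma adjusted p = 0.00165). FADS2, the desaturase at the start of polyunsaturated fatty acid synthesis, was at 64.3 to 78.7 RPKM with DMSO and 89.8 to 97.3 RPKM with GW3965. It rose by 0.37 (SE 0.06, limma adjusted p = 0.0459), but this call was lost in 13 of 20 alternative settings, among them the loss of any library other than DMSO library 4 (limma adjusted p of 0.0689 to 0.14). FADS1 was the other gene of this list without overlap (19.9 to 25.5 and 26.7 to 31.0 RPKM), at a log2 difference of 0.30 and a limma adjusted p of 0.222. Of all tested genes 1.35% were higher with GW3965 without overlap. SCD5 was lowest at -0.03 (SE 0.08). The differences between the fold changes of LPCAT3 or MBOAT2 and those of these genes were not tested.

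**Figure D4:**
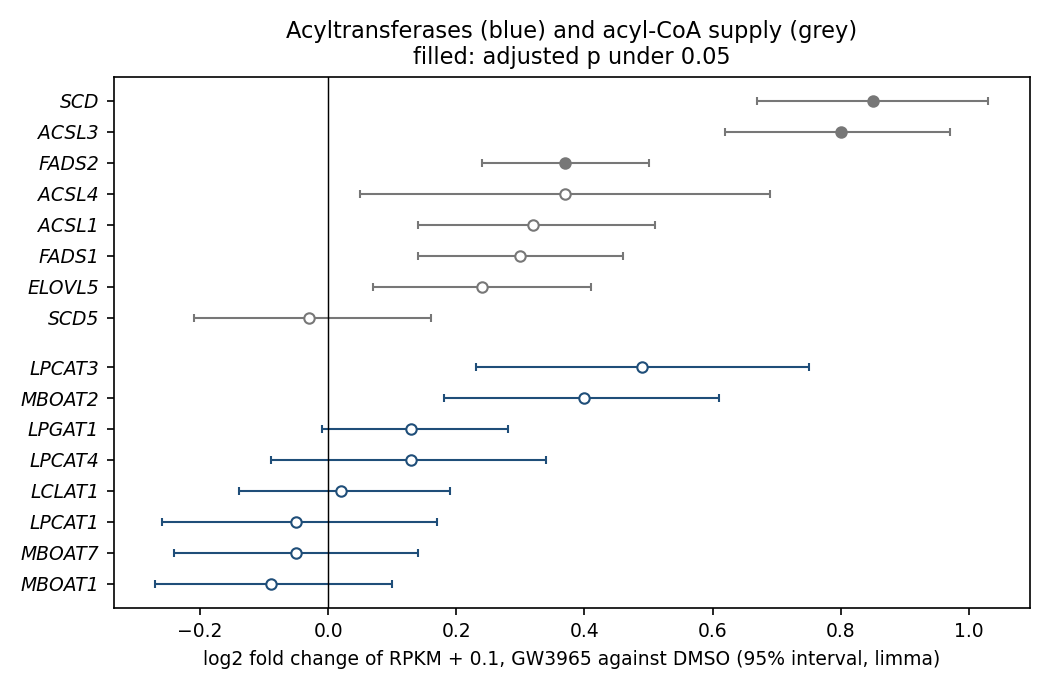
Log2 fold change of RPKM + 0.1 between GW3965 and DMSO with 95% intervals from limma, for acyl-CoA supply genes (grey) and the 8 tested acyltransferases (blue), with filled symbols for an adjusted p under 0.05. SCD, ACSL3 and FADS2 are filled, no acyltransferase is, and the intervals of LPCAT3 (0.23 to 0.75) and MBOAT2 (0.18 to 0.61) are the blue ones that lie wholly above 0.

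For comparison, LXR target genes rose in the same libraries. The log2 fold change was 2.29 for ABCA1 (SE 0.20, limma adjusted p = 0.00063), 2.13 for ABCG1 (SE 0.15, limma adjusted p = 0.000124), 0.74 for SREBF1, a regulator of lipid synthesis (limma adjusted p = 0.00362), and 0.74 for MYLIP, which degrades the LDL receptor (limma adjusted p = 0.00714). The receptor genes were expressed in both conditions, with means of 1.80 and 1.78 RPKM for NR1H3 (LXR alpha), 15.8 and 15.6 for NR1H2 (LXR beta), and 2.81 and 2.71 for RXRA, their partner. The value of 0.49 for LPCAT3 was below those of all 4 target genes, and its 95% interval (0.23 to 0.75) reached up to the values of SREBF1 and MYLIP.

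The genes whose pattern over the 10 libraries was most like that of LPCAT3 were found from the root mean square difference of log2 values centred on each gene's mean. They were WNT5A-AS1 (0.135), ME1 (0.139), FADS2 (0.141), CPT1A (0.146) and ST13P3 (0.152). ME1, the malic enzyme that yields NADPH for lipid synthesis, had means of 21.2 and 29.4 RPKM with DMSO and GW3965. CPT1A, which brings fatty acids into mitochondria, had means of 12.9 and 18.6 RPKM. Means were 5.22 and 6.49 RPKM for WNT5A-AS1 (limma adjusted p = 0.396) and 4.09 and 4.97 RPKM for ST13P3 (limma adjusted p = 0.591). Libraries of both conditions entered the likeness, so higher means with GW3965 follow in part from the choice of these genes.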

How the data were processed

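RNA of PC3 cells treated with DMSO or GW3965 was analysed in 10 libraries, grouped by their titles. The authors aligned single reads with Hisat2, counted them per annotated gene and deposited RPKM values of 62656 genes, of which 15119 had no read in any library. A mouse build is named in the methods, and the submitters' processing notes name hg38, HISAT2 2.1.0, HTSeq 0.11.2 and DESeq2 1.22.2. All gene identifiers are human. The annotation release and the strand setting are not given in the sources used here. The records name polyA RNA, while the protocol depletes ribosomal RNA. Nothing states that libraries came from separate cultures, so p-values measure the spread between libraries, which may be technical.

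Each value was a whole multiple of 1 step per gene and library, so reads were recovered (100% of values above 0 came out whole, tolerance 1e-06). The libraries had been scaled by median-of-ratios size factors. Counting intervals cover counting error only. 7SL RNAs took 12.0 to 23.2% of the reads. Replicates were compared pairwise and none were near-identical (chi-square per degree of freedom of 7.64 to 84.8 within conditions).

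Conditions were compared with limma 3.58.1 (R 4.3.3; lmFit, eBayes with a trend) on log2(RPKM + 0.1) for genes whose mean reached 0.5 RPKM, a scale that understates changes of low genes. Single values were compared by exact permutation over all labellings, and the counting interval of LPCAT2 was computed with SciPy 1.17.1. The procedure was tested on simulated data. Alternatives were other pseudocounts, filters, scaling, variance models, weights, a block, a covariate, voom on recovered reads and the loss of each library. Promoters were from RefSeq and gene positions from GENCODE 29. PLAAT3 and TAFAZZIN were matched by identifier. Named were all 9 genes, list members past the threshold or at either end of their list, LXR target and receptor genes, markers, and the 5 genes most like LPCAT3. Some results that this rule would name are not reported here. EMG1 and the other genes of acyl-CoA supply were named after their values were seen. The genes and lists were chosen with earlier results of these data known.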

Additional observations from a re-analysis of the deposited data

Results flagged for a closer look

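Among 62 groups of 5 libraries, the 5 below had 1 library whose gap to its nearest neighbour on the log2 scale, divided by the range of the group, exceeded Dixon's limit of 0.71, against 3.1 groups expected by chance at 5%. Of the 16 groups of acyltransferase genes 2 were among them, both in GW3965 library 5. LPCAT4 had a gap of 0.885 (10.2 RPKM against 7.68 to 7.94 in the other 4 libraries). MBOAT2 had a gap of 0.744 (8.29 RPKM against 6.54 to 6.95). DGAT1 had a gap of 0.721 in DMSO library 1 (13.9 RPKM against 15.3 to 15.9) and of 0.945 in GW3965 library 4 (14.4 RPKM against 15.3 in the others). ACSL4, which activates arachidonic acid, had a gap of 0.823 in DMSO library 4 (5.91 RPKM against 9.32 to 10.3).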

How the results depend on the processing

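Over the 20 alternative settings, 0 of the acyltransferase genes passed the threshold. LPCAT3 kept its direction, with log2 fold changes of 0.37 to 0.59 and limma adjusted p of 0.0619 (library weights) to 0.464, and so did MBOAT2, with 0.34 to 0.45 and 0.107 (voom) to 0.449. The number of genes called among all tested genes was 32 and changed to 21 without a filter, 20 without a trend, 56 with library weights, 63 with voom on recovered reads and 146 with the first principal component as a covariate, and to 17 to 38 when 1 library was left out. The direction turned for values near 0: with library weights for LPCAT1 (0.045), MBOAT7 (0.024) and SCD5 (0.038), and when 1 library was left out for LPCAT1 (-0.089 to 0.032), MBOAT7 (-0.096 to 0.00021), LCLAT1 (-0.027 to 0.058), DGAT1 (-0.044 to 0.0064) and SCD5 (-0.074 to 0.031). The cause was not tested. ACSL1 passed the threshold with the principal component as a covariate (limma adjusted p = 0.0396).

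With the replicate number as a block, 16 genes were called, and the limma adjusted p was 0.24 for LPCAT3 and 0.367 for MBOAT2, while SREBF1 (0.0643), MYLIP (0.0724) and CPT1A (0.0625) were no longer past the threshold. Libraries of the same number correlated at 0.149, -0.0488, 0.0386, 0.16 and -0.138 in their deviations, and 3 of 10 libraries correlated best with their own number. These values do not settle whether the numbers pair the libraries, and no label states it. The read numbers limit LPCAT2, with at most 4 reads per library.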
